A study of Mus musculus with 15 samples.

Results

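The 31 genes described here make bile acids from cholesterol, conjugate them, carry them across the faces of the hepatocyte or regulate these steps. They were listed by name, and none was left out for its values, but earlier results of these data were known when genes and lists were chosen. Of the 31 genes, 30 were measured as transcript clusters of a single gene among 22180 genes in all. The remaining gene, Slc51b, shares its cluster with Rasl12 and has no value of its own. No filter on level was applied, so all 30 were tested.

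Bile acids are made in hepatocytes along a classic pathway, which starts with cholesterol 7alpha-hydroxylase (Cyp7a1), and along alternative pathways, which start with hydroxylation of the sterol side chain and continue with the 7alpha-hydroxylases Cyp7b1 and Cyp39a1. The sterol ring is then modified, the side chain is shortened in peroxisomes, and the acid is linked to taurine or glycine before the bile salt export pump Abcb11 moves it into bile. Bile acids returning from the gut are taken up again at the sinusoidal face, and in hepatocytes they activate the nuclear receptor FXR (Nr1h4), which induces Nr0b2 (SHP), a repressor of Cyp7a1 and Cyp8b1.

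Liver RNA of 15 male mice of the genotype apoE3L.CETP was measured, with 1 array per mouse. These mice carry human APOE*3-Leiden and CETP transgenes, which change how their lipoproteins are cleared and exchanged, and all groups share them. All were 9-12 weeks old when obtained, were given 2 weeks to acclimate, were fed 60% fat with 0.25% cholesterol during the 6 weeks before surgery, lived alone afterwards and were killed 20 days after surgery. The RYGB group (n = 6) had Roux-en-Y gastric bypass, an operation that joins a small gastric pouch to the jejunum, whereas the Sham AL group (n = 5) had sham surgery with free access to food and the BWm group (n = 4) had sham surgery and was held to a matched body weight. Mice of the cohorts also went through glucose and insulin tests before and after surgery. Set side by side, the 3 groups allow bypass to be compared with sham surgery at free feeding (RYGB against Sham AL) and at a matched body weight (RYGB against BWm), and weight matching to be compared with free feeding without bypass (BWm against Sham AL). The labels number the samples as biological replicates and do not say whether any were housed together before surgery or operated on together.

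Levels are robust multi-array average signals on the log2 scale, on which 1 unit is a 2-fold difference, and signals of different genes are not compared, since each cluster has its own probes. Array medians lay between 3.89 and 4.02. The hepatocyte marker albumin (Alb) lay between 12.83 and 12.93 on all 15 arrays. Sham AL replicate 4 stood apart, with 662 genes more than 1 log2 unit away from its own group, where the other 14 arrays had 53 to 128 such genes. This array held the adrenal enzyme Cyp11b1 at 10.37 and the brown fat protein Ucp1 at 11.89. Calls among the 30 genes that this array decides are given with and without it. In a piece of liver, fewer cells of a type and less RNA per cell cannot be told apart.

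A gene was called at an adjusted p under 0.05 (limma, Benjamini-Hochberg over all 22180 genes). In RYGB against Sham AL, 2 of the 30 genes were called (6.67%), against 1.38% of all genes, with 1 higher (0.938% of all genes) and 1 lower (0.442%). In RYGB against BWm, 4 of 30 (13.3%) were called against 6.36% of all genes, with 1 higher (4.02%) and 3 lower (2.34%). In BWm against Sham AL, 4 of 30 (13.3%) were called against 2.84% of all genes, with 3 higher (1.53%) and 1 lower (1.3%). At an unadjusted p under 0.05 the counts were 7, 11 and 10 of 30, where all genes gave 12.9%, 18.4% and 15.3%. The median log2 difference over the 30 genes was -0.04, -0.14 and 0.14 in the same order, and over all genes it was 0, 0 and -0.01. The arrays of the groups compared did not overlap for 2, 4 and 8 of the 30 genes, and for 2.39%, 7.61% and 6.85% of all genes. Each group takes part in 2 of the comparisons, so the comparisons are not independent of each other. All genes here include those with weak signals, whereas most of the 30 lay well above the array medians. With only genes of mean 5 or more, 3, 5 and 7 of the members were called, and 446, 1749 and 1046 of all genes. Among the members this filter left out Ch25h, Slc51a and Gpbar1. The number of all genes that passed it is not given here, so these counts cannot be read as shares. The part of signal level in the shares above was not tested.

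**Figure D1:**
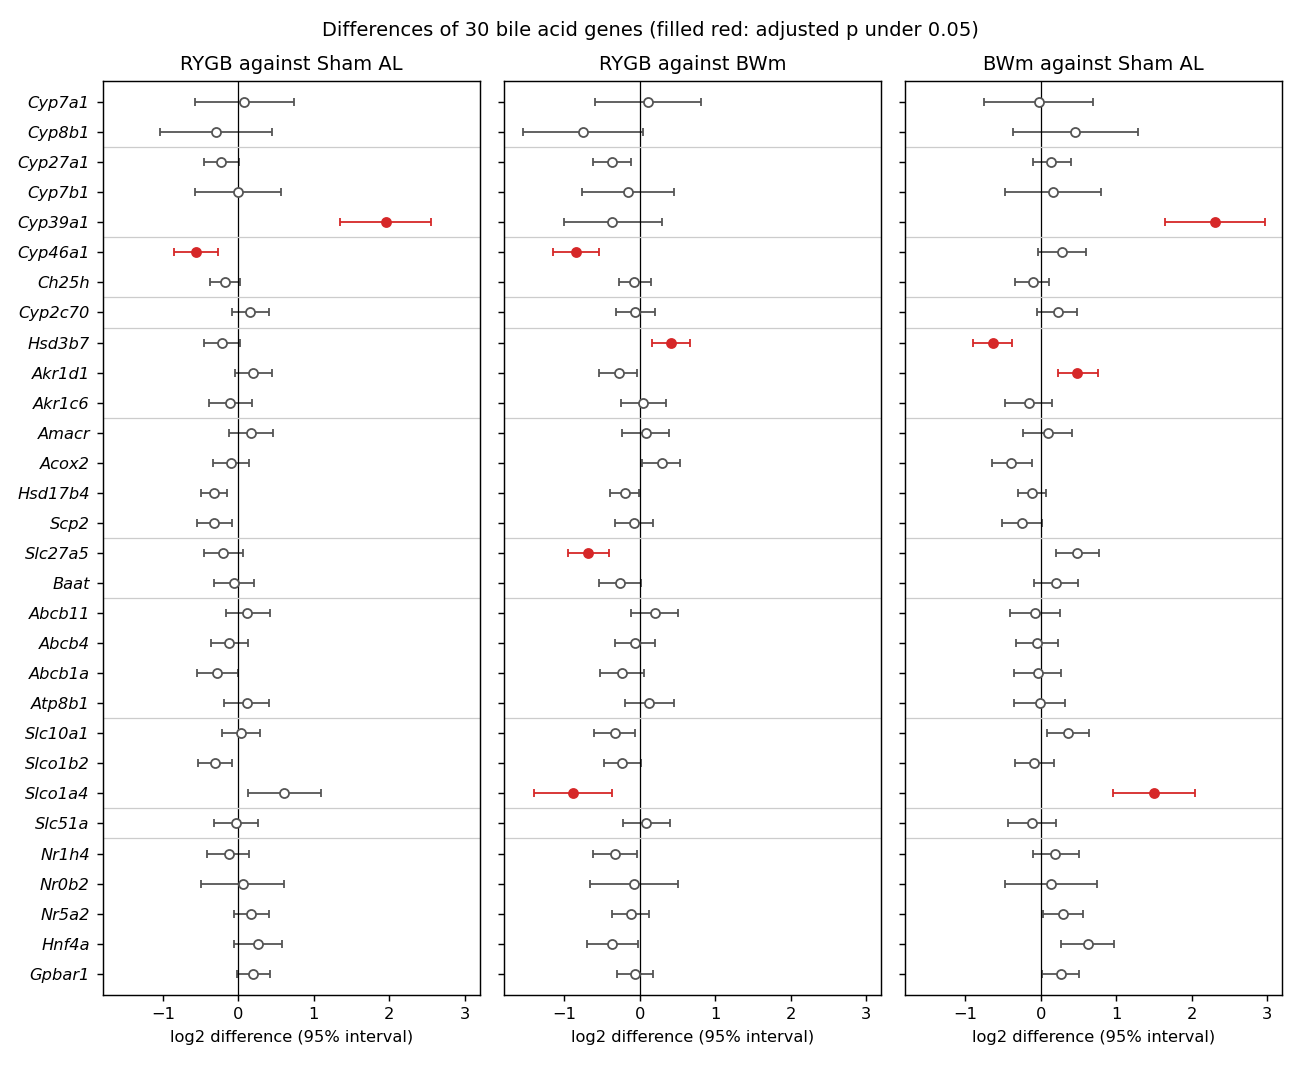
Log2 difference of each of the 30 genes (points) with its 95% interval (lines) in the 3 comparisons, grouped by step of the pathway; filled red points are called at an adjusted p under 0.05. Most intervals cover 0, Cyp39a1 lies at 1.95 in RYGB against Sham AL and at 2.31 in BWm against Sham AL, and the other called genes lie between -0.88 and 1.5.

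The 2 hydroxylases of the classic pathway were not called in any comparison, and neither differed beyond the wide spread between mice. Cyp7a1, whose enzyme sets the rate of the classic pathway, lay between 9.33 and 11.2 on the RYGB arrays with a median of 10.65. It measured 9.89, 10.19, 10.55, 10.33 and 10.8 on the Sham AL arrays and 10.96, 9.41, 10.1 and 10.8 on the BWm arrays. The 3 groups overlapped almost fully, and the highest and the lowest of the 15 values were both RYGB mice. Its mean was 10.43 ± 0.71 (SD, n = 6) in RYGB, 10.35 ± 0.35 (n = 5) in Sham AL and 10.32 ± 0.71 (n = 4) in BWm. The 95% interval of the log2 difference ran from -0.58 to 0.74 for RYGB against Sham AL, from -0.59 to 0.81 for RYGB against BWm and from -0.76 to 0.69 for BWm against Sham AL. Changes within these intervals, in either direction, were thus not excluded. The intervals are not adjusted for the number of genes, so a call would have needed a larger difference than their ends.

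Cyp8b1, the sterol 12alpha-hydroxylase that directs synthesis towards cholic acid, lay between 6.99 and 9.77 on the RYGB arrays with a median of 8.78. It measured 8.86, 9.3, 8.72, 8.57 and 9.28 in Sham AL and 9.57, 8.85, 9.58 and 9.61 in BWm. The RYGB values spread over both sides of the other groups, and 2 of 6 lay above the BWm mean. The log2 difference of RYGB from BWm was -0.75 ± 0.38 (SE), with an interval from -1.55 to 0.04 and an adjusted p of 0.306 in the limma fit. RYGB replicates 1 and 2 held the highest Cyp8b1 values of their group, and in a fit without them, chosen after their values were seen, the difference was -1.24 with an adjusted p of 0.0315. Leaving out 1 array at a time moved it between -0.98 and -0.42 without a call.

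Of the 3 genes of the alternative pathways, Cyp39a1 alone was called. Cyp27a1, the mitochondrial sterol 27-hydroxylase, lay between 9.53 and 10.01 in RYGB with a median of 9.85, at 10.08, 10.2, 9.88, 9.84 and 10.13 in Sham AL, and at 10.2, 10.13, 10.25 and 10.1 in BWm. All RYGB values lay below all BWm values, and they overlapped with Sham AL. The difference of RYGB from BWm was -0.37 ± 0.12 (SE) with an adjusted p of 0.0724 (limma). It was called without RYGB replicate 1 (adjusted p = 0.05 after rounding) and without RYGB replicates 1 and 2 (-0.47, adjusted p = 0.032), and it was not called in the other 14 fits that left out 1 array. That pair held the 2 highest RYGB values of Cyp27a1 and was chosen after the values were seen. With all arrays, it was called among genes of mean 5 or more (adjusted p = 0.0298) and with trended and robust priors (adjusted p = 0.0479). In all it was called in 4 of 25 alternative limma fits.

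Cyp7b1, the oxysterol 7alpha-hydroxylase, lay between 8.67 and 10.2 in RYGB with a median of 9.02, and at 9.3, 9.57, 8.75, 9.3 and 9.42 in Sham AL and 9.51, 8.71, 9.95 and 9.54 in BWm. The groups overlapped, and RYGB replicates 1 and 2, at 10.2 and 9.92, lay apart from the other 4 RYGB mice at 8.67 to 9.27. The log2 difference of RYGB from Sham AL was 0 ± 0.27 (SE), with an interval from -0.57 to 0.57.

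Cyp39a1, the 7alpha-hydroxylase that acts on 24-hydroxycholesterol, was higher in both RYGB and BWm than in Sham AL. It measured 7.07, 7.46, 8.28, 8.48, 7.75 and 8.21 on the RYGB arrays, 6.23, 5.23, 6.01, 5.89 and 6.27 on the Sham AL arrays, and 8, 9.05, 8.53 and 7.35 on the BWm arrays. Every RYGB and every BWm array lay above every Sham AL array, and the RYGB and BWm arrays overlapped. Cyp39a1 rose in RYGB against Sham AL by 1.95 ± 0.29 (SE) on the log2 scale, or 3.86-fold (adjusted p = 0.00169, limma). It rose in BWm against Sham AL by 2.31 ± 0.32, or 4.94-fold (adjusted p = 0.00119). Both calls held in all 15 fits that left out 1 array. RYGB against BWm gave -0.36 ± 0.31 with an interval from -1 to 0.29 and an adjusted p of 0.616. A difference between these groups was not detected, and one within that interval was not excluded.

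**Figure D2:**
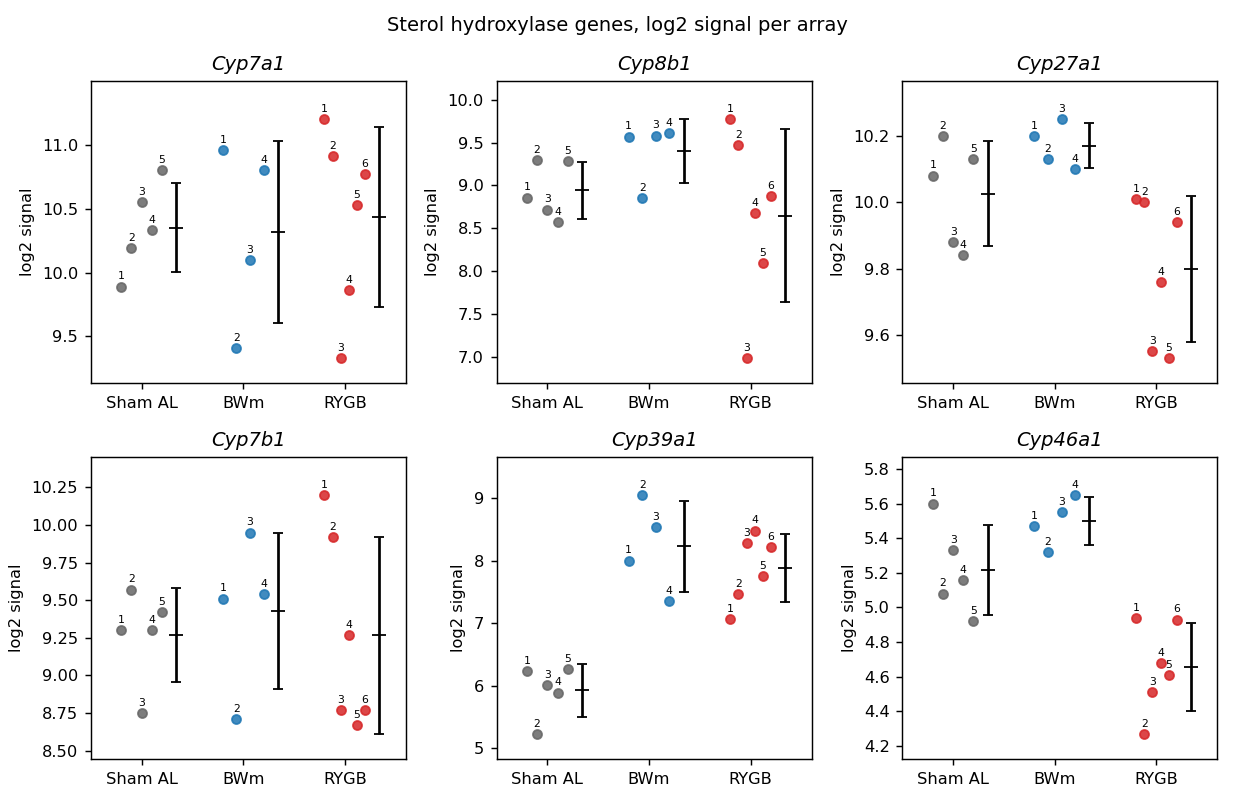
Log2 signal of 6 sterol hydroxylase genes on each of the 15 arrays, by group; points carry the replicate number, and the bar beside each group is the mean ± SD (Sham AL n = 5, BWm n = 4, RYGB n = 6). Cyp39a1 of Sham AL lies between 5.23 and 6.27, below all other arrays, while the groups overlap for Cyp7a1 and Cyp7b1.

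Among the hydroxylases that also make oxysterol signals, Cyp46a1, the cholesterol 24-hydroxylase best known from neurons, was lower in RYGB. Its signal lay between 4.27 and 4.94 in RYGB with a median of 4.64, at 5.6, 5.08, 5.33, 5.16 and 4.92 in Sham AL and at 5.47, 5.32, 5.55 and 5.65 in BWm. All RYGB arrays lay below all BWm arrays, and RYGB overlapped with Sham AL only in that RYGB replicates 1 and 6 (4.94 and 4.93) lay just above Sham AL replicate 5 (4.92). Cyp46a1 fell in RYGB against BWm, with a log2 difference of -0.84 ± 0.15 (SE) and an adjusted p of 0.00145 (limma), in all 15 fits that left out 1 array. It fell in RYGB against Sham AL by 0.56 ± 0.14 on the log2 scale at an adjusted p of 0.0487. That second call was lost in 12 of the 15 fits that left out 1 array, with adjusted p up to 0.13, and was kept only when the array left out was that of RYGB replicates 1 or 6 or Sham AL replicate 5. Without the array of Sham AL replicate 4 it was -0.58 with an adjusted p of 0.0643. These are weak signals, not far above the array medians, and signal over background was not measured.

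Ch25h, the cholesterol 25-hydroxylase, lay between 3.39 and 3.98 on the 15 arrays, mostly under the lowest array median, and no comparison was called. Its other cluster had group means of 3.56, 3.79 and 3.47 in RYGB, Sham AL and BWm. Cyp2c70, which makes the muricholic acids of mice, lay between 11.11 and 11.77 on all arrays, and its log2 differences were 0.16, -0.06 and 0.22 in the 3 comparisons, none of them called.

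Of the 3 enzymes that act on the sterol ring, Hsd3b7 and Akr1d1 were called in BWm against Sham AL, in opposite directions, and Akr1c6 was not called. Hsd3b7, the oxidoreductase that follows 7alpha-hydroxylation in all pathways, lay between 8.72 and 9.19 in RYGB with a median of 9.05. It measured 9.43, 9.21, 9.15, 9.19 and 9.22 in Sham AL and 8.66, 8.27, 8.62 and 8.85 in BWm. All BWm arrays lay below all Sham AL arrays, and RYGB overlapped with BWm through replicate 5 alone, which was the lowest of its group. Hsd3b7 fell in BWm against Sham AL by 0.64 ± 0.12 (SE) on the log2 scale (adjusted p = 0.00843, limma), in all 15 fits that left out 1 array. It was higher in RYGB than in BWm by 0.42 ± 0.12 (adjusted p = 0.0386), a call that was lost in 9 of the 15 fits (adjusted p up to 0.159), those that left out RYGB replicates 1, 2, 3, 4 or 6, BWm replicates 1, 2 or 3, or Sham AL replicate 2. RYGB against Sham AL gave -0.22 ± 0.11 (adjusted p = 0.44).

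Akr1d1, the 5beta-reductase that gives bile acids their bent ring system, lay between 8.92 and 9.38 in RYGB with a median of 9.2, at 9.21, 9, 8.9, 8.71 and 9.21 in Sham AL, and at 9.59, 9.55, 9.29 and 9.51 in BWm. The BWm arrays all lay above the Sham AL arrays. Akr1d1 rose in BWm against Sham AL by 0.48 ± 0.13 (SE) on the log2 scale (adjusted p = 0.0471, limma). This call was lost in 12 of the 15 fits that left out 1 array, with adjusted p up to 0.139, and was kept only when the array left out was that of Sham AL replicates 1 or 5 or RYGB replicate 4. Without Sham AL replicate 4 it was 0.41 with an adjusted p of 0.103. Akr1c6, an aldo-keto reductase that acts on steroids, lay between 7.11 and 7.87 on all arrays, and no comparison was called.

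The promoters of genes that moved are shown next, as the 250 bases before the annotated start on the gene's strand (RefSeq, GRCm38.p6), because most of the known regulators of this pathway are nuclear receptors that bind short motifs. They are Slco1a4 at chr6:141856221-141856470 (minus strand), Hsd3b7 at chr7:127800359-127800608 (plus strand), Akr1d1 at chr6:37529923-37530172 (plus strand), Cyp46a1 at chr12:108334066-108334315 (plus strand) and, for the gene of the classic pathway with the widest spread, Cyp8b1 at chr9:121916306-121916555 (minus strand). Capitals mark matches to the motifs searched.
Slco1a4: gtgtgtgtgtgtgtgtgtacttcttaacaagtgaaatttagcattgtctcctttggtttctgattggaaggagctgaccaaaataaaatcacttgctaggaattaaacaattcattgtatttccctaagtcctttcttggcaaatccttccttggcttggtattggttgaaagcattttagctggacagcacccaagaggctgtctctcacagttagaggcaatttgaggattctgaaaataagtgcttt
Hsd3b7: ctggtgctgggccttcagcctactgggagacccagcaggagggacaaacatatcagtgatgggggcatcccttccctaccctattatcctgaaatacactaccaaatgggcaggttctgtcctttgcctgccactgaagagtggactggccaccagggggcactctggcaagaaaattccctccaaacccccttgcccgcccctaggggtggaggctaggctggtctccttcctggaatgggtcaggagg
Akr1d1: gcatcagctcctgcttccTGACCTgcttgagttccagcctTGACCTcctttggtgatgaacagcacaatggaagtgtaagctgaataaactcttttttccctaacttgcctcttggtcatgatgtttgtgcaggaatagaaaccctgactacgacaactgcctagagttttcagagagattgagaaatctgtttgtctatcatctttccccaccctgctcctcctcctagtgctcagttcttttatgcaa
Cyp46a1: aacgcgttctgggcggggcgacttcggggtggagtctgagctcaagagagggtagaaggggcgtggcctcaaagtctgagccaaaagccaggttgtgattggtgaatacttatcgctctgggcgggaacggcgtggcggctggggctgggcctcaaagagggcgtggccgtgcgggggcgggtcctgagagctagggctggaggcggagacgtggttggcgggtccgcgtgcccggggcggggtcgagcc
Cyp8b1: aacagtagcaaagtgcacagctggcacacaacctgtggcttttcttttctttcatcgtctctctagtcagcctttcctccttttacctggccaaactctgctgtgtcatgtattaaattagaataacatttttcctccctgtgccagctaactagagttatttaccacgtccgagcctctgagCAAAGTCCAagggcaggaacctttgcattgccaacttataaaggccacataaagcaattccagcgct

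Of the 31 genes, 23 had a promoter in the table used, and Cyp7a1, Cyp7b1, Cyp39a1, Hsd17b4, Amacr, Slc27a5, Baat and Atp8b1 did not. On either strand, the nuclear receptor motif AGGTCA was in 9 of the 23 promoters (39.1%) and in 13.8% of the 27025 promoters of the table. Of these 9 genes, only Akr1d1 was called in a comparison. The others were Nr5a2, Abcb11, Scp2, Slco1b2, Nr1h4, Slc51a and Cyp2c70, none called, and Slc51b, which has no value of its own. The called genes Slco1a4, Hsd3b7 and Cyp46a1 had no match. The 2 matches of AGGTCA in Akr1d1 lay 232 to 227 and 210 to 205 bases before the start, both on the opposite strand (TGACCT). The motif CAAAGTCCA, of the kind bound by HNF4A, was in Cyp8b1, 67 to 59 bases before the start, and in Cyp2c70, and in 0.381% of all promoters. The extended motif CAAGGTCA, of the kind bound by NR5A2, was in 0 of 23 and in 1.31% of all promoters, and the inverted repeat of AGGTCA with 1 base of any kind between its copies, of the kind bound by FXR, was in 0 of 23 and in 2 promoters of the table (0.0074%). Both of these longer motifs contain AGGTCA and overlap its matches. A match is a description of these letters, and binding was not measured.

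None of the 4 genes of side-chain shortening was called in any comparison. Hsd17b4, the peroxisomal D-bifunctional protein, lay between 9.85 and 10.02 in RYGB with a median of 9.89, at 10.15, 10.32, 10.18, 10.15 and 10.37 in Sham AL and at 10.15, 10.15, 10.17 and 9.99 in BWm. Every RYGB array lay below every Sham AL array, with a log2 difference of -0.32 ± 0.08 (SE) and an adjusted p of 0.0661 (limma). Scp2, whose peroxisomal thiolase cleaves the side chain, gave -0.32 ± 0.11 in the same comparison (adjusted p = 0.21), and -0.45 with an adjusted p of 0.0461 without RYGB replicates 1 and 2. These replicates held the 2 highest RYGB values of Scp2, so leaving them out had to widen the difference. The BWm arrays of Scp2, at 11.31 to 11.55, lay below its Sham AL arrays, at 11.63 to 11.81, with an adjusted p of 0.363. Acox2, the branched-chain acyl-CoA oxidase, gave -0.39 ± 0.13 in BWm against Sham AL (adjusted p = 0.115). Amacr, the racemase of the pathway, had log2 differences of 0.17, 0.08 and 0.09 in the 3 comparisons.

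Of the conjugation enzymes, Slc27a5, the bile acid CoA ligase that also takes up fatty acids, was lower in RYGB than in BWm. It lay between 9.75 and 10.22 in RYGB with a median of 9.87, at 10.33, 10.14, 9.84, 9.94 and 10.33 in Sham AL and at 10.85, 10.54, 10.38 and 10.62 in BWm. Every BWm array lay above every RYGB and every Sham AL array, while RYGB and Sham AL overlapped. Slc27a5 fell in RYGB against BWm, by 0.68 ± 0.13 (SE) on the log2 scale (adjusted p = 0.00319, limma), in all 15 fits that left out 1 array. BWm against Sham AL gave 0.48 ± 0.14 with an adjusted p of 0.0668. Baat, which joins the activated acid to taurine or glycine, lay between 8.57 and 9.32 on all arrays and was not called, with -0.26 ± 0.13 in RYGB against BWm (adjusted p = 0.32).

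At the sinusoidal face, the organic anion transporter Slco1a4 was highest in BWm. It lay between 7.34 and 8.52 in RYGB with a median of 8.05, at 7.39, 6.93, 7.66, 6.68 and 8.01 in Sham AL and at 8.75, 9, 8.7 and 8.89 in BWm. The 4 BWm arrays lay close together and above all other arrays, while RYGB and Sham AL overlapped. Slco1a4 rose in BWm against Sham AL by 1.5 ± 0.26 (SE) on the log2 scale, or 2.83-fold (adjusted p = 0.00357, limma), in all 15 fits that left out 1 array. It fell in RYGB against BWm, by 0.88 ± 0.25 (adjusted p = 0.0387), a call that was lost in 7 of 15 such fits, without RYGB replicate 2, 4 or 5 or any 1 of the 4 BWm replicates (adjusted p up to 0.112). RYGB against Sham AL gave 0.61 ± 0.23 with 6 of 6 RYGB arrays above the Sham AL mean and an adjusted p of 0.243.

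The other 2 uptake genes were not called. Slc10a1 (NTCP), the sodium-dependent carrier of conjugated bile acids, lay between 10.97 and 11.51 in RYGB with a median of 11.08, at 11.21, 11.3, 11.15, 10.78 and 11.15 in Sham AL and at 11.33, 11.41, 11.64 and 11.53 in BWm. The BWm arrays lay above all Sham AL arrays, with a difference of 0.36 ± 0.13 (SE, adjusted p = 0.169, limma), and RYGB against BWm gave -0.33 ± 0.13 (adjusted p = 0.151). Slco1b2, which takes up unconjugated bile acids, gave -0.31 ± 0.11 in RYGB against Sham AL (adjusted p = 0.2) with 6 of 6 RYGB arrays below the Sham AL mean.

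**Figure D3:**
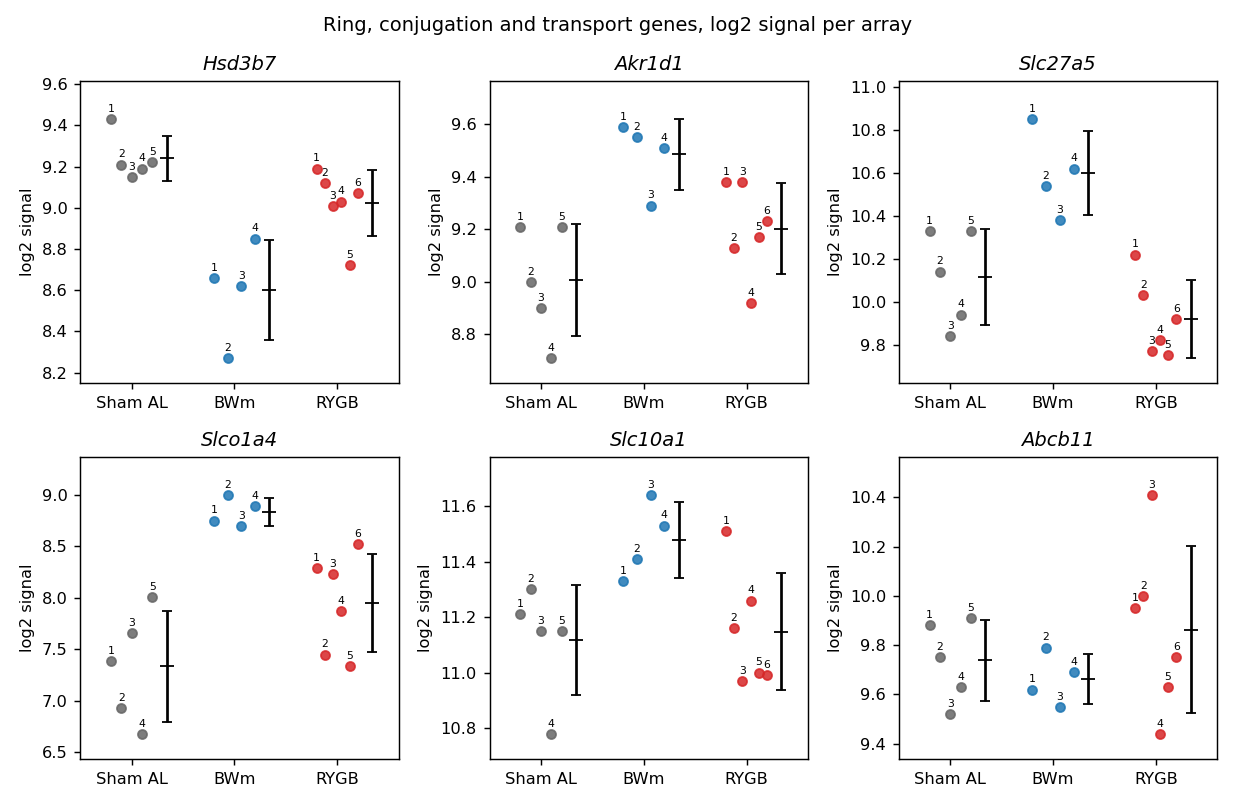
Log2 signal of 6 genes of ring modification, conjugation and transport on each of the 15 arrays, by group; points carry the replicate number and the bar beside each group is the mean ± SD (Sham AL n = 5, BWm n = 4, RYGB n = 6). BWm lies above all other arrays for Slc27a5 and Slco1a4 and below all Sham AL arrays for Hsd3b7, where RYGB replicate 5 overlaps with it, and the groups overlap for Abcb11.

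None of the 4 genes of the canalicular face was called. Abcb11, the bile salt export pump and a known FXR target, lay between 9.44 and 10.41 in RYGB with a median of 9.85, at 9.88, 9.75, 9.52, 9.63 and 9.91 in Sham AL and at 9.62, 9.79, 9.55 and 9.69 in BWm. Its 95% interval ran from -0.17 to 0.42 in RYGB against Sham AL, from -0.12 to 0.51 in RYGB against BWm and from -0.41 to 0.25 in BWm against Sham AL. Abcb4, which moves phosphatidylcholine into bile, lay between 9.43 and 10.01 and Atp8b1, a flippase of the canalicular membrane, between 7.45 and 8.25 on all arrays. Abcb1a, a P-glycoprotein of hepatocytes and endothelium, gave -0.28 ± 0.13 (SE) in RYGB against Sham AL (adjusted p = 0.384, limma).

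On the basolateral route, Slc51a, a subunit of the organic solute transporter that returns bile acids to blood, lay between 2.52 and 3.31 on all arrays, under the lowest array median. The cluster shared by Slc51b, its partner subunit and an FXR target, and Rasl12 had higher signals in RYGB. It measured 4.82, 5.74, 7.07, 4.57, 5.5 and 4.34 in RYGB, 3.45, 3.92, 4.66, 3.3 and 4.01 in Sham AL and 3.38, 3.88, 3.26 and 3.37 in BWm. All RYGB arrays lay above all BWm arrays, and RYGB overlapped with Sham AL. In a fit over all 41345 clusters, where 3.13% were called, the cluster was higher in RYGB than in BWm by 1.87 ± 0.42 (SE) on the log2 scale (adjusted p = 0.0223, limma). RYGB against Sham AL gave 1.47 ± 0.39 (adjusted p = 0.152). The signal cannot be assigned to either gene.

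Of the 5 receptors and regulators, none was called. Nr1h4 (FXR) lay between 8.37 and 8.85 in RYGB with a median of 8.6, at 8.77, 8.73, 8.86, 8.32 and 8.93 in Sham AL and at 8.78, 8.78, 9.31 and 8.78 in BWm. All 6 RYGB arrays lay below the BWm mean, with a difference of -0.32 ± 0.14 (SE) and an adjusted p of 0.216 (limma). Nr0b2 (SHP), whose transcript FXR induces, lay between 7.53 and 9.16 in RYGB with a median of 8.36, at 7.92, 8.56, 8.53, 8.36 and 8.07 in Sham AL and at 8.73, 7.5, 8.86 and 8.58 in BWm. These ranges overlapped almost fully, and the interval in RYGB against Sham AL ran from -0.49 to 0.61.

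Hnf4a, the hepatocyte factor that drives many of these genes, lay between 9.92 and 10.45 in RYGB with a median of 10.35, at 10.44, 10.1, 10.21, 9.71 and 9.7 in Sham AL and at 10.4, 11.01, 10.76 and 10.44 in BWm. Its difference of BWm from Sham AL was 0.62 ± 0.17 (SE) with an adjusted p of 0.0554 (limma), and among the fits that left out 1 array it was called in those without RYGB replicate 5 and without Sham AL replicate 1 (lowest adjusted p 0.0282). Nr5a2 (LRH-1), which activates Cyp7a1 and Cyp8b1, gave 0.29 ± 0.13 in the same comparison (adjusted p = 0.255). Gpbar1 (TGR5), the membrane receptor of bile acids, which in liver is found on cholangiocytes, Kupffer cells and endothelium, lay between 4.02 and 4.65 on all arrays, and its BWm arrays, at 4.47 to 4.63, lay above its Sham AL arrays, at 4.02 to 4.45 (adjusted p = 0.289).

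By step of the pathway, the median log2 difference in BWm against Sham AL was 0.36 for the 3 uptake genes, 0.34 for the 2 conjugation genes, 0.26 for the 5 regulators, -0.16 for the 3 ring genes and -0.18 for the 4 side-chain genes. In RYGB against BWm these medians were -0.33, -0.47, -0.12, 0.05 and 0.01. In RYGB against Sham AL they were 0.03, -0.13, 0.17, -0.11 and -0.21. For the 2 classic genes the medians were -0.11 in RYGB against Sham AL, -0.32 in RYGB against BWm and 0.21 in BWm against Sham AL, and for the 3 alternative genes 0, -0.36 and 0.16. These medians rest on few genes, and single arrays moved those of both synthesis routes. Leaving out 1 array at a time gave -0.3 (without RYGB replicate 1) to 0.17 (without RYGB replicate 3) for the classic genes in RYGB against Sham AL, so the sign was not fixed. The classic median in RYGB against BWm ran from -0.56 (without BWm replicate 2) to -0.04 (without RYGB replicate 3), and that in BWm against Sham AL from 0.08 (without BWm replicate 1) to 0.45 (without BWm replicate 2). The alternative median ran from -0.19 (without RYGB replicate 1) to 0.12 (without RYGB replicate 5) in RYGB against Sham AL, and in BWm against Sham AL from 0.11 (without Sham AL replicate 3) to 0.4 (without BWm replicate 2).

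Within groups, several genes of bile acid synthesis varied more than most genes. The residual SD of the fit was 0.7 for Cyp8b1, higher than that of 99.3% of all genes, 0.61 for Cyp7a1 (98.9%), 0.56 for Cyp39a1 (98.5%), 0.53 for Cyp7b1 (98.1%), 0.51 for Nr0b2 (97.9%) and 0.44 for Slco1a4 (96.2%). The median over the 30 genes, 0.21, equalled that of all genes, and Hsd17b4 had the lowest, 0.09.

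Within RYGB, replicates 1 and 2 lay at 1 end of the group for 4 hydroxylase genes, picked after the values were seen. They held the 2 highest values of the group for Cyp7a1 (11.2 and 10.91), Cyp8b1 (9.77 and 9.47) and Cyp7b1 (10.2 and 9.92), and the 2 lowest for Cyp39a1 (7.07 and 7.46). The next values were near for Cyp7a1 (10.77) and Cyp39a1 (7.75), and Slco1a4 (8.29 and 7.45) lay within the range of the other 4 mice. Their arrays had 93 and 62 genes more than 1 log2 unit away from the group, and the other RYGB arrays had 59 to 128. In mouse liver Cyp7b1 is known to be higher in males and Cyp39a1 and Slco1a4 in females, so a list of 16 genes known as male-predominant and a list of 19 known as female-predominant in liver, of which 17 were measured, are given beside them. The male list, as a mean of centred log2 values, was 0.78 and 0.43 in RYGB replicates 1 and 2, -0.67 to -1.21 in the other 4 RYGB mice, 0.32 to 0.66 in Sham AL and -0.76 to 0.39 in BWm. The lowest BWm array, replicate 2, was also the lowest BWm array for Cyp7a1 (9.41), Cyp8b1 (8.85) and Cyp7b1 (8.71) and the highest for Cyp39a1 (9.05). Other arrays did not follow this order. RYGB replicate 6 had the lowest male list of all arrays (-1.21), and its Cyp7a1 (10.77) and Cyp8b1 (8.88) were the highest of the group after replicates 1 and 2. The female list was -0.39 and -0.47 in RYGB replicates 1 and 2, -0.26 to 0.45 in the other RYGB mice, -0.34 to -0.15 in Sham AL and 0.13 to 0.6 in BWm. BWm replicate 4 had the highest female list (0.6) and the lowest Cyp39a1 of its group (7.35).

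**Figure D4:**
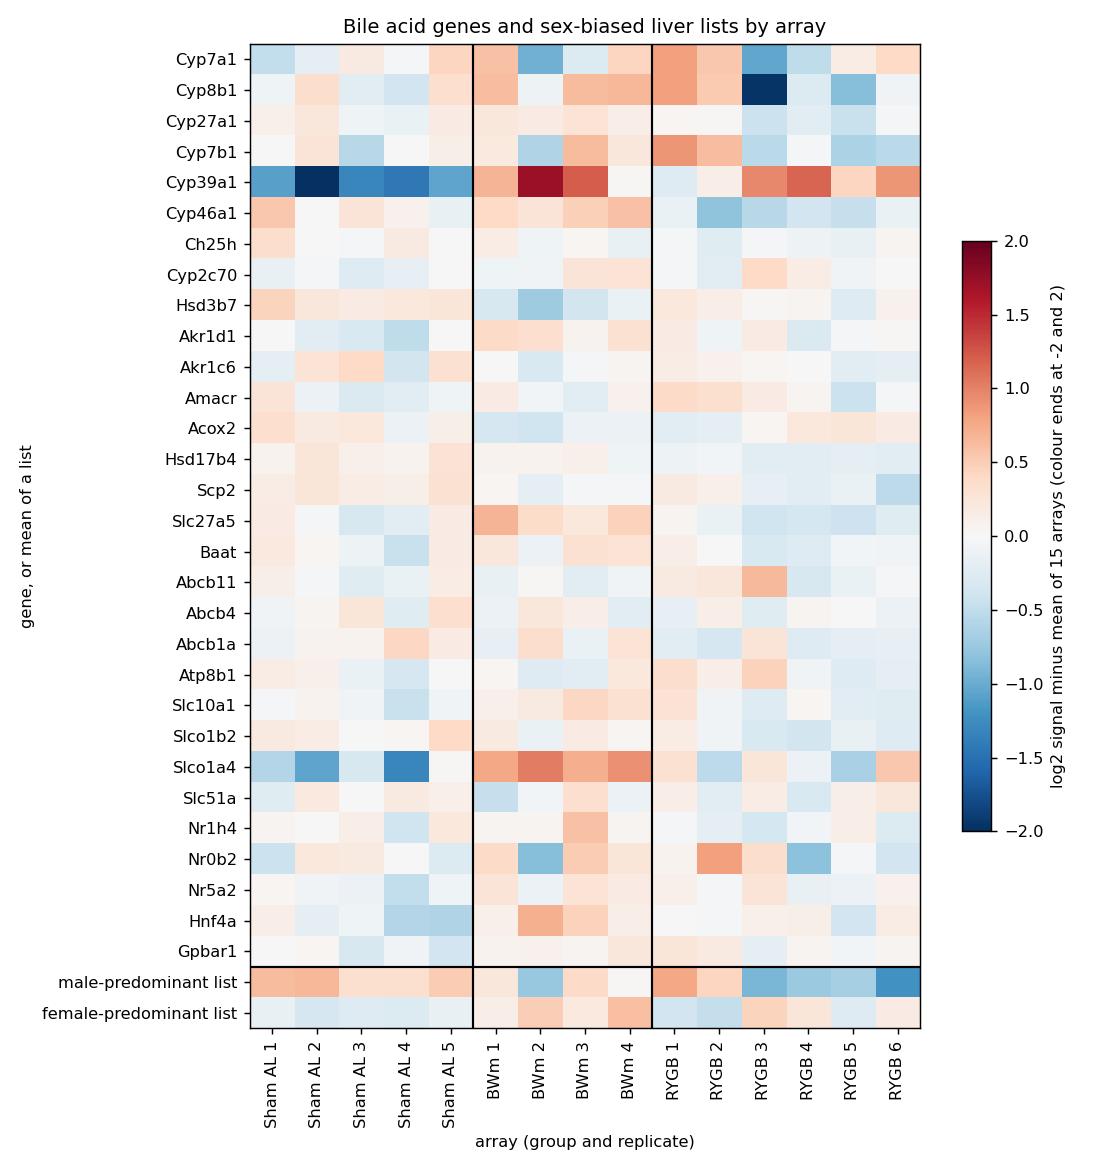
Log2 signal of the 30 genes and the means of the male-predominant and female-predominant lists on the 15 arrays, each row centred on its mean over all arrays; the colour scale ends at -2 and 2. RYGB replicates 1 and 2 are the highest of their group for Cyp7a1, Cyp8b1 and Cyp7b1 and the lowest for Cyp39a1, and the male list is 0.78 and 0.43 on these arrays.

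In RYGB against Sham AL, 3 of the 16 male-predominant genes fell and 0 rose (Cyp2d9, Cyp4a12a and Elovl3), with a median log2 difference of -0.71, and of the 17 female-predominant genes 2 rose (Atp6v0d2 and Nipal1) and 1 fell (Cyp3a44), with a median of 0.3. In BWm against Sham AL, 0 of 16 male-predominant genes were called by limma, with 6 at an unadjusted p under 0.05 and a median of -0.49, and 3 of 17 female-predominant genes rose (Fmo2, Acot3 and Nipal1), with a median of 0.24. In RYGB against BWm, 1 male-predominant gene rose (Gstp1) and 1 fell (Elovl3), with a median of -0.09, and 3 female-predominant genes fell (Cyp3a44, Fmo2 and Acot3) and 0 rose, with a median of -0.15. Beside these counts, 0.938% of all genes rose and 0.442% fell in RYGB against Sham AL. The shares were 1.53% and 1.3% in BWm against Sham AL, and 4.02% and 2.34% in RYGB against BWm. At an unadjusted p under 0.05, RYGB against Sham AL gave 10 of the 16 male-predominant and 8 of the 17 female-predominant genes, and 12.9% of all genes. BWm against Sham AL gave 6 and 7 of them and 15.3% of all genes, and RYGB against BWm gave 3 and 5 and 18.4%. Without RYGB replicates 1 and 2, the log2 difference of Cyp39a1 from Sham AL was 2.25 (adjusted p = 0.000546, limma). That pair held the 2 lowest Cyp39a1 values of its group and was chosen after the values were seen. Leaving it out had to raise the difference, so this fit is no check of the call. The part of these lists in the differences of Cyp39a1, Slco1a4 or Cyp8b1 was not tested.

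The descriptions give each animal a number whose meaning is not stated, under 50 for RYGB replicates 1, 2 and 3 and Sham AL replicate 1 and above 60 for all others. Among animals numbered above 60 alone, Cyp39a1 was higher than in Sham AL by 2.3 in RYGB (adjusted p = 0.00476) and by 2.38 in BWm (adjusted p = 0.00283), and Slco1a4 by 1.51 in BWm (adjusted p = 0.0145). Hsd3b7 in BWm against Sham AL was -0.59 (adjusted p = 0.0416), and in RYGB against BWm Cyp46a1 was -0.76 (adjusted p = 0.006) and Slc27a5 -0.77 (adjusted p = 0.0087). The other calls were lost there, namely Cyp46a1 in RYGB against Sham AL (-0.38, adjusted p = 0.312), Hsd3b7 (0.34, adjusted p = 0.257) and Slco1a4 (-0.92, adjusted p = 0.114) in RYGB against BWm, and Akr1d1 in BWm against Sham AL (0.53, adjusted p = 0.0579). These fits held fewer arrays: RYGB replicates 4, 5 and 6, Sham AL replicates 2 to 5 and the 4 BWm arrays. Over all 15 arrays the differences were -0.56, 0.42, -0.88 and 0.48 in the same order, so a lost call need not be a smaller difference. Whether the number marks a batch is not given in the sources used here.

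A further list of 56 genes that handle, sense or regulate bile acids, of which 43 were measured, had 2 genes that rose and 2 that fell in RYGB against Sham AL, with a median log2 difference of -0.15. Among all genes, 0.938% rose and 0.442% fell in this comparison. Abcc4 (MRP4), a basolateral pump for bile acids, measured 6.02, 6.84, 6.89, 7.68, 7.11 and 7.14 in RYGB, 4.78, 4.91, 5.46, 6.05 and 6.17 in Sham AL and 5.41, 4.56, 4.95 and 4.57 in BWm. Its RYGB arrays lay above all BWm arrays and overlapped with Sham AL through replicate 1. Abcc4 rose in RYGB against Sham AL by 1.48 ± 0.28 (SE) on the log2 scale (adjusted p = 0.0115, limma) and was higher in RYGB than in BWm by 2.07 ± 0.3 (adjusted p = 0.000344).

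Cyp3a11, which hydroxylates bile acids and is a target of the pregnane X receptor, measured 8.64, 9.17, 8.65, 8.04, 9.29 and 8.52 in RYGB, 9.74, 9.99, 10.57, 9.79 and 10.48 in Sham AL and 9.77, 9.28, 9.61 and 9.72 in BWm. Every RYGB array lay below every Sham AL array. Cyp3a11 fell in RYGB against Sham AL by 1.39 ± 0.2 (SE) on the log2 scale (adjusted p = 0.00169, limma) and in RYGB against BWm by 0.88 ± 0.22 (adjusted p = 0.0195). Signals of Cyp3a genes can mix near-identical copies. The efflux pump Abcg2 fell against Sham AL by 0.68 ± 0.16 (adjusted p = 0.0441), and Cyp51, an enzyme of cholesterol synthesis, rose by 1.4 ± 0.29 (adjusted p = 0.0177).

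In RYGB against BWm, 4 of the 43 genes rose (Abcc4, Cyp51, Ephx1 and Osbp) and 9 fell, with a median of -0.15, where 4.02% of all genes rose and 2.34% fell. The 9 were the sterol transporter subunits Abcg5 and Abcg8 (-0.9 ± 0.22 and -0.94 ± 0.22, SE), Cyp3a11, the peroxisomal enzymes Slc27a2 and Ehhadh, the uptake carrier Slco2b1, and the regulators Ppara, Ppargc1a and Foxa2. In BWm against Sham AL 3 rose (Ehhadh, Ppargc1a and Klb) and 3 fell (Hsd17b12, Ephx1 and Osbp), with a median of -0.03, where 1.53% of all genes rose and 1.3% fell. Klb, the co-receptor through which the gut hormone FGF15 acts on hepatocytes, rose by 0.73 ± 0.17 (adjusted p = 0.0275, limma) in BWm against Sham AL, and RYGB against Sham AL gave 0.58 ± 0.16 (adjusted p = 0.0802). Its partner receptor Fgfr4 gave 0.14 ± 0.13 in RYGB against Sham AL and 0.18 ± 0.15 in BWm against Sham AL, neither called. Values for Nr1h3 (LXRalpha), Nr1i2 (pregnane X receptor), Slco1a1 and Abcc3 in RYGB against Sham AL were 0.14 ± 0.12, 0.15 ± 0.16, -1.4 ± 0.65 and -0.4 ± 0.12, none called in any comparison.

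Few markers of other liver cells were called. Limma called 1.38%, 6.36% and 2.84% of all genes in RYGB against Sham AL, RYGB against BWm and BWm against Sham AL. At an unadjusted p under 0.05 the shares of all genes were 12.9%, 18.4% and 15.3%. All 12 Kupffer cell and macrophage markers had positive log2 differences in RYGB against Sham AL, of which 1 was called (Adgre1), with a median of 0.36, and in RYGB against BWm, of which 1 was called (Cd68), with a median of 0.35. At an unadjusted p under 0.05 there were 6 and 5 of the 12 in these comparisons. In BWm against Sham AL there was 1, with 0 called and a median of 0. Their mean level lay between 7.23 and 7.75 in RYGB, 6.96 and 7.52 in Sham AL, and 6.9 and 7.54 in BWm. For the 13 cholangiocyte markers the mean level lay between 4.25 and 4.59 on all arrays, with 0 called by limma in each comparison and 2, 1 and 1 at an unadjusted p under 0.05, and Krt19 lay between 3.87 and 4.34. For the 10 endothelial markers the medians were -0.19, -0.17 and -0.04, with 0 called and 3, 2 and 2 at an unadjusted p under 0.05. Of 10 ileal markers 1 fell in RYGB against Sham AL (Fabp2) and 0 were called elsewhere, with 1 and 1 at an unadjusted p under 0.05. The 9 measured hepatocyte markers, of which Hnf4a is also one of the 30 genes, had a mean level between 10.62 and 10.97 in RYGB, 10.68 and 10.97 in Sham AL, and 10.91 and 11.08 in BWm. Their median log2 difference was 0 in RYGB against Sham AL, -0.2 in RYGB against BWm (8 of 9 negative) and 0.19 in BWm against Sham AL (7 of 9 positive), with 1 called (Cps1, higher in BWm than in Sham AL), beside medians of -0.04, -0.14 and 0.14 over the 30 genes. Of the 10 adrenal and brown fat genes, Cidea and Cidec, which fatty liver also expresses, fell in each comparison with Sham AL, and 0 were called or at an unadjusted p under 0.05 in RYGB against BWm. The part of these cells in the differences above was not tested.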

How the data were processed

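Each of the 15 livers was hybridised to its own Affymetrix Mouse Gene 2.0 ST array. The deposited values are log2 signals per transcript cluster, which the authors made with the robust multi-array average over all arrays in Affymetrix Expression Console 1.4.1.46, per the submitters' processing notes. No source used here names the annotation or genome build behind the clusters. Of 41345 clusters, 23521 had 1 gene symbol, 1814 several and 16010 none; 23328 of those with 1 symbol were found by Entrez number in the RefSeq table and 0 symbols changed. The cluster with the highest mean was taken for the 1082 genes with several, which left 22180 genes.

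Comparisons were contrasts in 1 limma fit (limma 3.58.1, R 4.3.3, lmFit and eBayes) over 15 arrays, two-sided, with 12 residual and 5.85 prior degrees of freedom and Benjamini-Hochberg adjustment over all genes. Errors of differences are standard errors, and intervals are 95% intervals of the moderated fit. No filter was used. The precision is limited by the number of arrays. The p-values are for differences of group means, judged against the spread between mice within groups. The fit was tested on simulated data with 200 changed genes. Tables and figures used Python 3.11.15, pandas 2.3.3 and matplotlib 3.10.9.

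All 31 genes are named whatever their values. Of the further list of 56 bile acid genes, the called ones are named, and so are 8 fixed by name whatever their values (Fgfr4, Klb, Nr1h3, Nr1i2, Slco1a1, Abcc3, Abcc4 and Cyp3a11). Genes and lists were chosen with earlier results of these data known, so they are described by counts and medians without a test of the list. Promoters came from RefSeq (GRCm38.p6). Groups came from the sample labels. The settings varied were quantile normalization, subtracted array medians, a filter on level, the mean of a gene's clusters, only the groups compared, trended and robust priors, blocks for replicate or animal number, each array left out in turn, and the methods' one-way ANOVA. Fits on animals numbered above 60, without RYGB replicates 1 and 2, and over all clusters were added after the data were seen.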

Additional observations from a re-analysis of the deposited data

Results flagged for a closer look

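In 90 sets of values (30 genes in 3 groups), 8 held a single array far from the rest of its group by Dixon's test, where chance gives about 1 in 20. In RYGB, Hsd3b7 was low in replicate 5 (8.72, next 9.01), Hnf4a was low in replicate 5 (9.92, next 10.26) and Abcb1a was high in replicate 3 (6.61, next 6.19). In Sham AL, Hsd3b7 was high in replicate 1 (9.43, next 9.22). In BWm, Cyp8b1 was low in replicate 2 (8.85, next 9.57), Hsd17b4 was low in replicate 4 (9.99, next 10.15), Nr1h4 was high in replicate 3 (9.31, with the other 3 arrays at 8.78) and Gpbar1 was high in replicate 4 (4.63, next 4.49).

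The cluster shared by Slc51b and Rasl12, which lies outside the genes tested, was higher in RYGB than in BWm by 1.87 ± 0.42 (SE) on the log2 scale (adjusted p = 0.0223, limma over 41345 clusters), and its RYGB and BWm arrays did not overlap. Its highest value, 7.07, was that of RYGB replicate 3.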

How the results depend on the processing

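Of the 10 called differences, 6 were called in all 15 fits that left out 1 array, 0 of the 10 changed sign in any alternative, and 7 of the 80 differences that were not called were called in some alternative. These 7 were Cyp8b1 and Cyp27a1 in RYGB against BWm, Hsd17b4 and Scp2 in RYGB against Sham AL, and Acox2, Slc27a5 and Hnf4a in BWm against Sham AL. Of those 80, 29 changed sign in some alternative. Leaving out 1 array gave 1 to 2 genes called in RYGB against Sham AL, 2 to 4 in RYGB against BWm and 3 to 5 in BWm against Sham AL, and 144 to 398, 930 to 1544 and 284 to 646 of all genes.

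In RYGB against Sham AL, 1 of the 30 genes (Cyp39a1) was called with array medians subtracted, with only the groups compared, with the animal number block, with animals numbered above 60, and by the methods' one-way ANOVA with its p and 1.5-fold threshold or after Benjamini-Hochberg. In RYGB against BWm, 2 were called with the animal number block, with animals numbered above 60 and by the ANOVA after Benjamini-Hochberg. In BWm against Sham AL, 7 were called with a filter at a mean of 5, and 0 by the ANOVA after Benjamini-Hochberg, where limma called 4 and the ANOVA called 4 at its unadjusted p and fold threshold. Over all genes, the ANOVA called 54, 833 and 90 after Benjamini-Hochberg in the order of the comparisons, and 857 in RYGB against BWm at its p and fold threshold. The filter gave 1046 of all genes in BWm against Sham AL. The cause of these differences was not tested.

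Same-numbered replicates did not clearly deviate together (correlations from -0.17 to 0.19), so no pairing by number was seen. Correlations of this kind cannot exclude that some mice were housed together before surgery, or operated on or measured together. The fit with the replicate block called 2, 3 and 3 of the 30 genes and 174, 903 and 325 of all genes.

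Medians of pathway steps moved by more than 1 within-group SD of the step's mean per array in 13 of 822 values. For the classic genes that spread is wide, and their medians, which single arrays moved by over 1.5 times, are not among the 13. With the filter, which leaves Cyp46a1 alone in its step, it was -0.56, -0.84 and 0.28 in the order of the comparisons. In RYGB against BWm, the side-chain median was -0.15 with the animal number block, -0.18 with animals above 60 and -0.13 without RYGB replicates 1 and 2, and the regulator median was -0.26, -0.26 and -0.29. In RYGB against Sham AL, the alternative synthesis median was -0.27 with animals above 60 and -0.33 without RYGB replicates 1 and 2, and the ring median -0.25 with animals above 60. In BWm against Sham AL, leaving out 1 array gave 0.11 to 0.4 for the alternative synthesis median, with the highest without BWm replicate 2. Slc51a and Ch25h lay near or under the array medians, which limits what could be seen for them.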
